A study of Mus musculus with 12 samples.

Results

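Cells that make lactate and carbon dioxide must move the acid out. The 8 genes described here encode proteins of that task: the carbonic anhydrases Car2, Car9, Car12 and Car13, the lactate and proton carriers Slc16a1 (MCT1) and Slc16a3 (MCT4), their chaperone Bsg (basigin), and the sodium bicarbonate cotransporter Slc4a7. They were chosen by name and matched by Ensembl ID in the deposited tables, where they are 8 of 48709 gene IDs. RNA sequencing counted reads per gene in 12 samples of C57BL/6 mouse embryonic fibroblasts, in 4 groups of 3. Wild-type (WT) cells and cells labelled TAZKo were each sampled either in normoxia or after 24 hours in a hypoxia workstation. All were grown in DMEM with 10% fetal bovine serum at 37 °C and 5% CO2. TAZKo is the label for cells lacking tafazzin, the mitochondrial enzyme that remodels cardiolipin and is encoded by Taz. The labels name neither the oxygen level nor the way the knockout was made, and do not say whether samples of a group came from separate lines or cultures. The p-values therefore measure the spread between these samples, which may be technical.

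Carbonic anhydrases convert carbon dioxide and water to bicarbonate and a proton, and back. Car9 and Car12 carry their catalytic domain on the outside of the plasma membrane, where they help carry acid away from the cell surface, whereas Car2 and Car13 act in the cytosol. MCT1 and MCT4 move lactate together with a proton across the plasma membrane, MCT4 being the form typical of glycolytic cells that export lactate, and both need basigin to reach the membrane. Slc4a7 brings bicarbonate into the cell and so buffers its interior. Hypoxia-inducible factor (HIF), the transcription factor stabilised when oxygen is low, is known to switch on Car9, Car12 and Slc16a3 in many cell types.

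Total counts ran from 21039451 to 31204510 per sample, and 14408 genes passed the filter on low counts. Counts are given as CPM, counts relative to the library total after TMM scaling, with mean ± SD over n = 3 samples. The Taz transcript, at 510 to 1325 counts per sample, was higher and not lower in the samples labelled TAZKo, by 0.29 ± 0.0786 (SE) on the log2 scale in normoxia (edgeR adjusted p = 0.0139) and by 0.43 ± 0.0805 in hypoxia (adjusted p = 0.00112). The count therefore does not check the knockout, and the groups are called by their labels. Sample 1 stood apart in 3 groups, most in WT normoxia, where chi-square per degree of freedom was 33.2 and 39.3 against the other samples and 5.28 between those. The values were 12.5 and 12.7 against 3.42 in WT hypoxia and 7.96 and 9.99 against 2.715 in TAZKo-labelled normoxia. Of 9 fibroblast markers, 7 were over 1 CPM in every group, Fap was at 0 counts in every sample and Thy1 was near 0. Their summed level was 5064 to 6066 CPM in WT normoxia, 4173 to 4376 in the libraries labelled TAZKo in normoxia, 7027 to 8084 in WT hypoxia and 5587 to 5990 in the libraries labelled TAZKo in hypoxia. The lower sum with the TAZKo label follows Col1a1, at 2835 against 1153 CPM in normoxia (WT first) and 3605 against 1376 in hypoxia. Col3a1 (749.6 against 660.5, then 587 against 574.7 CPM) and the low Col1a2 (5.33 against 2.118, then 4.285 against 2.775) had lower means too. The means of Vim, Pdgfra, Pdgfrb and Dcn were higher with the label in both conditions. Of 5 epithelial markers 1 was over 1 CPM: Krt14, at 245 ± 31.1, 104 ± 4.87, 200.3 ± 5.17 and 133 ± 3.77 CPM in the same order. Summed markers of endothelial cells (at most 3.90 CPM), macrophages and osteoclasts (1.94 to 6.84), red cells (5.35 to 12.5) and pluripotent cells (0.875 to 2.43) were low, and Ptprc and Adgre1 had 0 or 1 count. Of the muscle markers Tnnt2 alone was over 1 CPM, at 1.05 and 2.05 CPM in normoxia (WT and TAZKo-labelled) and 8.26 and 11.8 in hypoxia, with Myod1, Myog and Ckm at 0 to 2 counts. Col1a1, Krt14 and Tnnt2 thus moved with the groups, and their part in the differences below was not tested.

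The genes lie on 6 chromosomes, all on the plus strand of GRCm38 in GENCODE M21. Car13 (ENSMUSG00000027555, chr3:14641727-14663002) and Car2 (ENSMUSG00000027562, chr3:14886273-14900770) lie in a cluster on chromosome 3 with Car1 and Car3 between them, and the chromosome also holds Slc16a1 (ENSMUSG00000032902, chr3:104638668-104658462). Car9 (ENSMUSG00000028463) is at chr4:43506966-43513729, Car12 (ENSMUSG00000032373) at chr9:66713686-66766845 and Bsg (ENSMUSG00000023175) at chr10:79704491-79711969. Slc16a3 (ENSMUSG00000025161) is at chr11:120948480-120960868 and Slc4a7 (ENSMUSG00000021733) at chr14:14702279-14799940. In the exons of Car9, 5.02% of 50-base words also occur in another annotated gene, and 214 exon bases overlap the antisense gene Gm12454. The library kit does not mark strand, so reads of Car9 and Gm12454 cannot be told apart there. Gm12454 itself had 15 to 70 counts per sample. The other 7 genes share none of their words.

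The HIF complex binds the core letters ACGTG or GCGTG, so windows from 250 bases before to 50 bases after the RefSeq start of each gene (GRCm38.p6) were searched for both on either strand. A window was found for 5 of the 8 genes: Car9, Car12, Slc16a1, Slc16a3 and Slc4a7. Of 32851 windows in the same table, 19.6% hold ACGTG, 32.4% hold GCGTG and 43.8% hold at least 1 of them, so a match by itself is common. The stretches upstream of Slc16a3, Car12 and Slc16a1 are shown because those transcripts were called higher in hypoxia in at least 1 genotype. That of Slc16a3 lies inside the GENCODE gene but in no exon. Only 30 bases are shown around the Car9 match and the second Slc16a3 match, which both fall in annotated exons. All are written 5′ to 3′ on the plus strand, with the searched letters in capitals (CACGT and CACGC are the same motifs read on the minus strand).
Slc16a3, chr11:120948817-120949052: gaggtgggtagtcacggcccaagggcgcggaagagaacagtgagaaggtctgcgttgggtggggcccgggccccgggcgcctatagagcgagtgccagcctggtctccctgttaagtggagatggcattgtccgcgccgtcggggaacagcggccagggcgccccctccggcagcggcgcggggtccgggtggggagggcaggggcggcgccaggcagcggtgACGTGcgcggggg
Slc16a3, second match, chr11:120949041-120949070: cgtgcgcgggggACGTGccgcgcgacggat
Car9, chr4:43506996-43507025: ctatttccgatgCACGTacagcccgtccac
Slc16a1, chr3:104638414-104638663: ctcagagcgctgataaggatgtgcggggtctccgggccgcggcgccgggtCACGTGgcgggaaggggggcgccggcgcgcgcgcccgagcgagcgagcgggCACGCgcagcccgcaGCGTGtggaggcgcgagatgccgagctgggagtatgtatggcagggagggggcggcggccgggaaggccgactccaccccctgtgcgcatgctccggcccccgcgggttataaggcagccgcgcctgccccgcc
Car12, chr9:66713436-66713685: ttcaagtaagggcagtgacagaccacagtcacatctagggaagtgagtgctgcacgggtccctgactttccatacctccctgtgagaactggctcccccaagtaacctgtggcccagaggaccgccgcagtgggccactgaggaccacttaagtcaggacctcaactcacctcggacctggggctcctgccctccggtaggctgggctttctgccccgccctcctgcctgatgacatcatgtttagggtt
Slc16a3 holds ACGTG at 27 bases before its RefSeq start and, in an annotated exon, at 14 bases before. Car9 holds it on the minus strand at 18 bases before. Slc16a1 holds the palindrome CACGTG, which 7.15% of windows have and which reads as ACGTG on both strands, at 200 bases before the start. It also holds GCGTG on the minus strand at 149 and on the plus strand at 134 bases before, and a further ACGTG at 20 bases after the start, in an annotated exon. Neither motif occurs in the windows of Car12 and Slc4a7, which says only that these letters are not there. The RefSeq start used for Slc4a7, chr14:14718784, lies inside the GENCODE gene, which begins at 14702279.

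In WT cells, 24 hours of hypoxia raised Car9, Car12, Slc16a3 and Bsg. These were 4 of the 7 genes that passed the filter, against 26% of all 14408 genes tested that were called higher (edgeR quasi-likelihood test, Benjamini-Hochberg adjusted p under 0.05). None was called lower, against 25% of all genes, and none was lower at an unadjusted p under 0.05 or called lower by DESeq2. Of 21 alternatives, however, 3 called Car13 lower, as given below. The median log2 change was 1.35 over the 7 genes and 0.0089 over all genes tested. In the libraries labelled TAZKo, hypoxia raised Car12, Slc16a1, Slc16a3 and Bsg, again 4 of 7, against 22.2% of all genes called higher. None was called lower there, against 21.6% of all genes, and again none at an unadjusted p under 0.05 or by DESeq2, with a median of 0.48 against -0.0088. The samples are bulk RNA, so more or fewer cells of a type and more or less RNA per cell cannot be told apart in any of these values. The plot of hypoxia responses shows both genotypes beside each other.

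**Figure D1:**
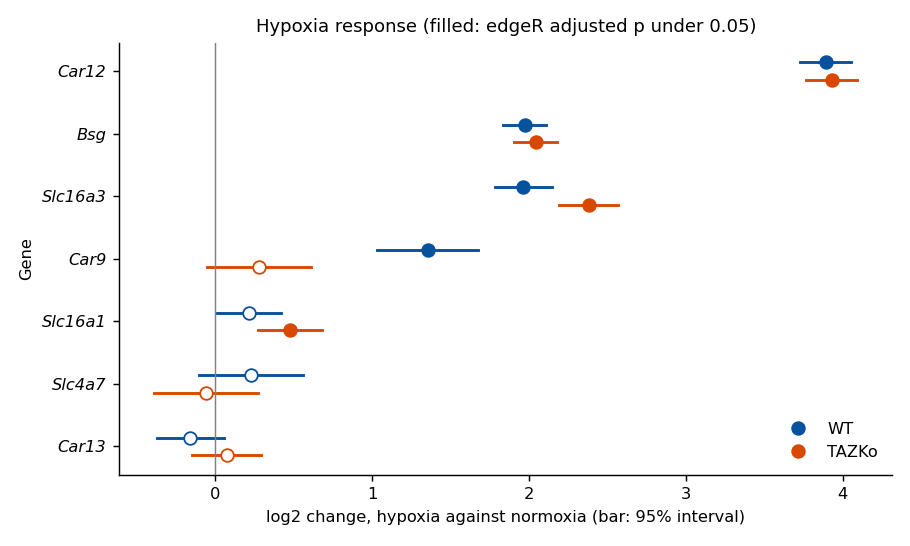
The log2 change from normoxia to hypoxia (x axis) is drawn for each tested gene in WT and in TAZKo-labelled samples, with 95% intervals from the edgeR fit. Car12 lies at 3.89 and 3.93, Slc16a3 and Bsg lie between 1.97 and 2.38, and Car9 separates the genotypes at 1.35 and 0.28.

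Car12, the membrane anhydrase expressed in many epithelia, had the largest hypoxia response of the 7 genes in both genotypes. In WT normoxia it was at 33.6, 33.4 and 35.5 CPM (34.2 ± 1.17), and in WT hypoxia at 538, 477 and 507 CPM (507.2 ± 30.8). In the libraries labelled TAZKo it was at 23.3, 21.2 and 24.5 CPM in normoxia (23.0 ± 1.67) and at 353, 365 and 334 CPM in hypoxia (351 ± 15.6). No hypoxia sample came near a normoxia sample, and no TAZKo-labelled sample reached a WT sample of the same condition. Hypoxia raised Car12 by 3.89 ± 0.0748 on the log2 scale in WT, a fold of 14.8 (adjusted p = 4.46e-13). With the TAZKo label the rise was 3.93 ± 0.0755, a fold of 15.3 (adjusted p = 4.29e-13). The difference between the responses was 0.04 ± 0.0966 (adjusted p = 0.888; 95% interval -0.169 to 0.248). Between genotypes, Car12 was lower in the libraries labelled TAZKo by a log2 change of -0.57 ± 0.0715 in normoxia (1.49-fold, adjusted p = 4.38e-05) and -0.53 ± 0.0657 in hypoxia (1.45-fold, adjusted p = 3.85e-05).

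Car9, the anhydrase used as a marker of hypoxic tissue, was a low transcript here at 81 to 267 counts per sample. It stood at 4.51, 4.08 and 3.15 CPM in WT normoxia (3.91 ± 0.695) and at 4.80, 3.51 and 4.17 CPM in TAZKo-labelled normoxia (4.16 ± 0.643), and these groups overlap. In hypoxia it stood at 11.2, 9.02 and 9.72 CPM in WT (9.96 ± 1.09) and at 5.25, 4.53 and 5.40 CPM in the libraries labelled TAZKo (5.06 ± 0.465). Every WT hypoxia sample lies above all the others, whereas 1 of the 3 TAZKo-labelled hypoxia samples lies within the range of normoxia of the same label. Hypoxia raised Car9 2.56-fold in WT (log2 change 1.35 ± 0.148, adjusted p = 5.29e-06), and the change in the libraries labelled TAZKo was 0.28 ± 0.153 (adjusted p = 0.161; 95% interval -0.051 to 0.608). The interaction, the test of the difference between these responses, gave -1.08 ± 0.214 (adjusted p = 0.0179), the only member so called, against 1.71% of all genes called lower in the interaction; none was called higher, against 0.722% (1, Slc16a3, at an unadjusted p under 0.05 and by DESeq2). No alternative setting turned its direction, but the call was lost without TAZKo normoxia sample 1 (adjusted p = 0.0561), TAZKo normoxia sample 3 (0.0569), WT hypoxia sample 3 (0.0512) or TAZKo hypoxia sample 2 (0.065). In hypoxia Car9 was 1.97-fold lower in the libraries labelled TAZKo (log2 change -0.98 ± 0.143, adjusted p = 0.000156), while in normoxia it differed by 0.10 ± 0.159 (adjusted p = 0.693). For the antisense partner Gm12454 the WT hypoxia counts were 15, 17 and 19 and the TAZKo-labelled ones 39, 34 and 69, opposite in order to Car9, and its part in the result was not tested. Hif1a, which encodes the oxygen-regulated HIF subunit, differed by a log2 change of -0.48 in TAZKo-labelled hypoxia (adjusted p = 0.0184) and by -0.36 in normoxia (adjusted p = 0.0719), with an interaction of -0.12 (adjusted p = 0.817), and its part in the Car9 result was not tested.

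**Figure D2:**
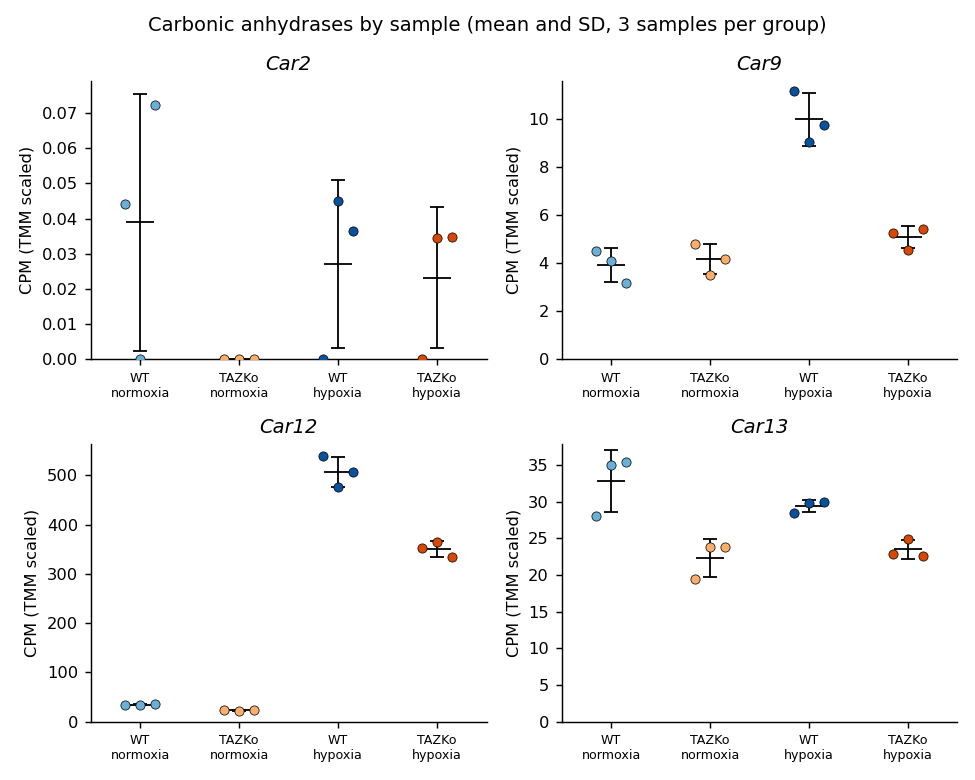
CPM per sample (linear axis) is drawn for the anhydrases in the 4 groups, with points for samples and a bar for each group mean. Car12 rises in hypoxia in both genotypes, Car9 stands apart in WT hypoxia at 9.02 to 11.2 CPM, and Car13 stays between 19.4 and 35.4 CPM.

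Of the cytosolic forms, Car13 was well above the counting floor and Car2 was not. Car13 was at 28.0, 35.1 and 35.4 CPM in WT normoxia (32.8 ± 4.18) and at 19.4, 23.8 and 23.8 CPM in TAZKo-labelled normoxia (22.3 ± 2.53). In hypoxia it was at 28.4, 29.8 and 29.99 CPM in WT (29.4 ± 0.868) and at 22.9, 24.9 and 22.6 CPM in the libraries labelled TAZKo (23.5 ± 1.27). The genotypes do not overlap in either condition, and the conditions overlap in either genotype. Car13 was lower in the libraries labelled TAZKo by -0.56 ± 0.101 in normoxia (1.47-fold, adjusted p = 0.000877) and by -0.32 ± 0.101 in hypoxia (1.25-fold, adjusted p = 0.0243). Its hypoxia changes were -0.16 ± 0.0996 in WT (adjusted p = 0.202) and 0.07 in the libraries labelled TAZKo (adjusted p = 0.6). The WT change came to -0.26 (adjusted p = 0.0155) without WT normoxia sample 1, the lowest of its group, to -0.26 with library size alone (adjusted p = 0.0294) and to -0.24 with no filter (adjusted p = 0.0494). Car2, the fast cytosolic anhydrase of red cells and osteoclasts, had 0 to 2 counts in every sample and failed the filter. The limit that a count of 0 allows, 3 counts, corresponds to 0.096 to 0.143 CPM in these libraries, and no fold is given.

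The make-up of the 4 anhydrases differed between normoxia and hypoxia samples, with Car13 leading in every normoxia sample and Car12 in every hypoxia sample. Levels can be compared between genes only per length, so they are given as RPKM, CPM per kilobase of merged exons. The summed RPKM of Car2, Car9, Car12 and Car13 was 20.5 ± 1.66 in WT normoxia, 14.5 ± 0.901 in TAZKo-labelled normoxia, 83.9 ± 4.2 in WT hypoxia and 58.6 ± 2.36 in TAZKo-labelled hypoxia. Car13 made up 69.5% and 66.7% of the sum in normoxia (WT and TAZKo-labelled) and 15.3% and 17.4% in hypoxia. Car12 went the other way, from 22.0% and 20.8% to 79.6% and 78.8%. The longest transcript in place of merged exons was an alternative chosen after seeing the data. With it the share of Car12 was 36.2% and 34.5% in normoxia and 88.5% and 88.1% in hypoxia. That of Car13 was then 56% and 54.0% in normoxia and 8.32% and 9.53% in hypoxia. Car9 never exceeded 15.3% of the sum in a sample (merged exons). The plot of make-up shows the stacked RPKM in each sample.

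**Figure D3:**
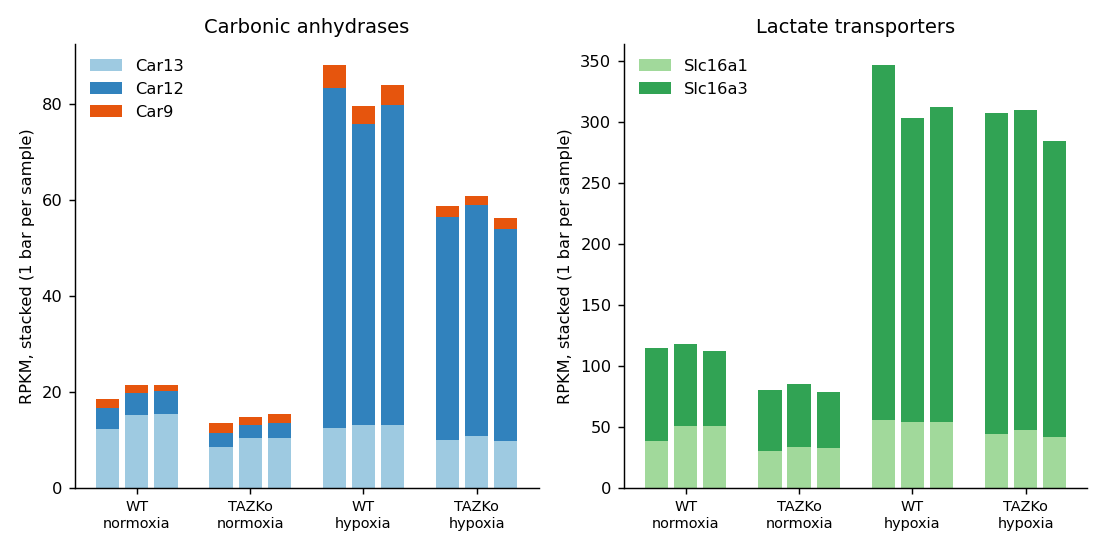
Stacked bars give the RPKM of Car13, Car12 and Car9, and of Slc16a1 and Slc16a3, with a bar for each sample of the 4 groups. Car2 is not drawn. Car13 leads in normoxia and Car12 in hypoxia, where Car12 has a mean share of 79.6% in WT and 78.8% in TAZKo-labelled samples. Slc16a3 has a mean share of 83.1% and 85.2% of the transporter pair in hypoxia.

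Among the lactate carriers, hypoxia raised Slc16a3 (MCT4) in both genotypes, and Slc16a1 (MCT1) was called in the libraries labelled TAZKo. Slc16a3 was at 406, 355 and 328 CPM in WT normoxia (363 ± 39.4) and at 1548, 1326 and 1374 CPM in WT hypoxia (1416 ± 117). In the libraries labelled TAZKo it was at 267, 273 and 244 CPM in normoxia (261 ± 15.1) and at 1400, 1392 and 1291 CPM in hypoxia (1361 ± 61.0). The genotypes are apart in normoxia and overlap in hypoxia. Hypoxia raised Slc16a3 3.90-fold in WT (log2 change 1.97 ± 0.0854, adjusted p = 6.31e-10) and 5.21-fold in the libraries labelled TAZKo (2.38 ± 0.0867, adjusted p = 1.57e-10). The difference between the responses, 0.42 ± 0.117, missed the threshold (adjusted p = 0.0876), although it passed in 6 of 20 alternatives, among them the replicate block (adjusted p = 0.0154) and DESeq2 (0.033). Slc16a3 was lower in TAZKo-labelled normoxia by -0.47 ± 0.083 (1.39-fold, adjusted p = 0.000705), and in hypoxia it differed by -0.06 ± 0.0822 (adjusted p = 0.637; 95% interval -0.235 to 0.120).

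Slc16a1, the MCT form found in most tissues, was at 171, 225 and 225 CPM in WT normoxia (207 ± 31.2) and at 244, 238 and 237 CPM in WT hypoxia (239.9 ± 3.84). In the libraries labelled TAZKo it was at 132, 149 and 143 CPM in normoxia (141 ± 8.75) and at 194, 211 and 185 CPM in hypoxia (197 ± 13.2). No group overlaps a group that differs from it in 1 factor. Slc16a1 rose in the libraries labelled TAZKo by 0.48 ± 0.0946 (1.39-fold, adjusted p = 0.00113). In WT the change was 0.21 ± 0.0941 (adjusted p = 0.0737; 0.22 with the replicate block, adjusted p = 0.0301), and 0.09 without WT normoxia sample 1. The responses did not pass the test of their difference (0.26, adjusted p = 0.372; 0.38 without WT normoxia sample 1, adjusted p = 0.0203). Slc16a1 was lower in the libraries labelled TAZKo by -0.55 ± 0.0946 in normoxia (1.46-fold, adjusted p = 0.000628) and by -0.29 ± 0.0941 in hypoxia (1.22-fold, adjusted p = 0.0316). Per length, Slc16a3 held 59.3% and 60.6% of the summed RPKM of the MCT pair in normoxia (WT and TAZKo-labelled) and 83.1% and 85.2% in hypoxia.

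**Figure D4:**
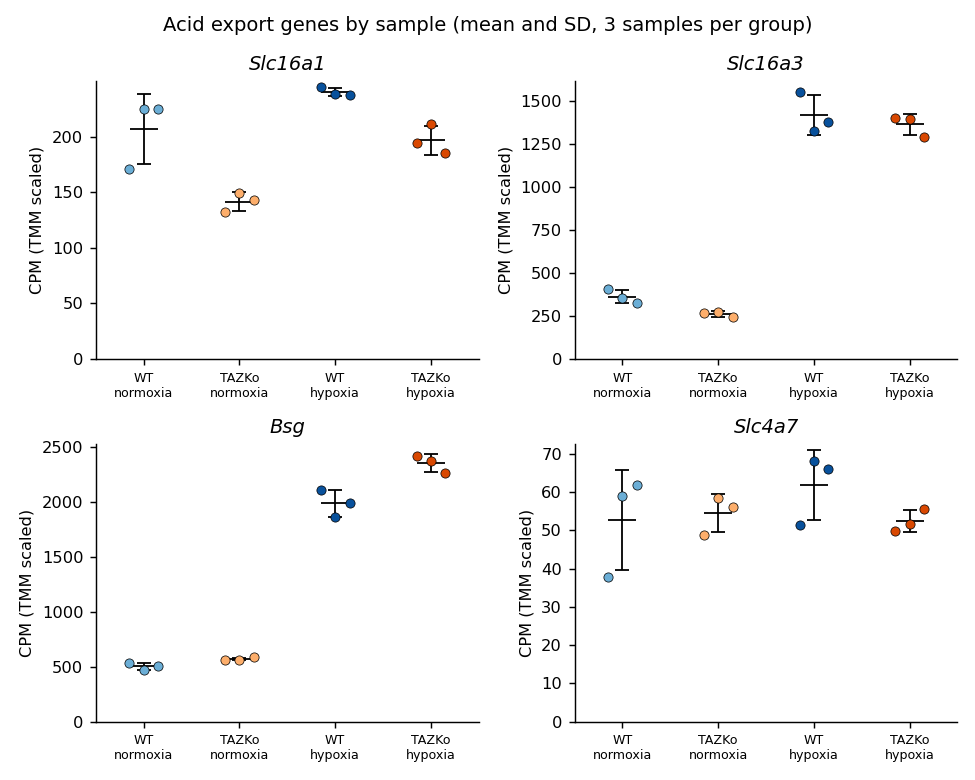
CPM per sample (linear axis) is drawn for Slc16a1, Slc16a3, Bsg and Slc4a7 in the 4 groups, with points for samples and a bar for each group mean. Slc16a3 and Bsg rise in hypoxia in both genotypes, Slc16a1 lies between 132 and 244 CPM throughout, and Slc4a7 overlaps between all groups.

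Bsg, the chaperone of both carriers, was at 538, 476 and 508 CPM in WT normoxia (507 ± 31.2) and at 2111, 1868 and 1992 CPM in WT hypoxia (1990.0 ± 122). In the libraries labelled TAZKo it was at 561, 567 and 586 CPM in normoxia (571 ± 13.0) and at 2426, 2372 and 2270 CPM in hypoxia (2356 ± 79.5). It is the only member called higher with the TAZKo label, and no groups overlap. Hypoxia raised Bsg by 1.97 ± 0.0635 in WT (3.93-fold, adjusted p = 3.38e-11). With the TAZKo label the rise was 2.04 ± 0.0637 (4.12-fold, adjusted p = 3.17e-11), and the interaction was 0.07 (adjusted p = 0.738). Between genotypes it was higher by 0.24 ± 0.0612 in hypoxia (adjusted p = 0.00769) and by 0.17 ± 0.0614 in normoxia (adjusted p = 0.0489). The normoxia call passed in 3 of 21 alternatives, whose log2 changes ran from 0.0965 to 0.216 and adjusted p from 0.00966 to 0.295. The 676 tested genes of chromosome 10, where Bsg lies, had median genotype changes of 0.31 in normoxia and 0.29 in hypoxia, against 0.0099 and -0.0078 over all genes, and the part of this shift in the Bsg result was not tested. Summed RPKM of the MCT pair was 115 ± 2.60 in WT normoxia and 81.1 ± 3.49 in TAZKo-labelled normoxia. Bsg per unit of that sum was 2.43 ± 0.182 and 3.89 ± 0.226 in normoxia and 3.43 ± 0.0841 and 4.33 ± 0.0901 in hypoxia, WT first, and no groups of the same condition overlap. An exact two-sided permutation test of the ratio between genotypes gave p = 0.1 in either condition, the smallest p that 3 against 3 samples allow (adjusted over both, 0.1).

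Slc4a7, the bicarbonate importer, was called in none of the comparisons. It was at 37.8, 58.8 and 61.7 CPM in WT normoxia (52.8 ± 13.0) and at 48.8, 58.5 and 56.1 CPM in TAZKo-labelled normoxia (54.5 ± 5.03). In hypoxia it was at 51.3, 68.1 and 66 CPM in WT (61.8 ± 9.16) and at 49.8, 51.8 and 55.4 CPM in the libraries labelled TAZKo (52.3 ± 2.86). All groups overlap. None of its 4 pairwise changes passed, with adjusted p from 0.239 to 0.866. The replicate block called the WT hypoxia change (0.24, adjusted p = 0.0462), which fell to 0.04 without WT normoxia sample 1, the lowest sample.

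Between genotypes, 4 of the 7 tested genes were lower in TAZKo-labelled normoxia (Car12, Car13, Slc16a1 and Slc16a3), against 14.9% of all genes called lower, and 1 was higher (Bsg), against 15.6%. In hypoxia 4 were lower (Car9, Car12, Car13 and Slc16a1), against 16.9% of all genes, and 1 was higher (Bsg), against 15.8%. The median log2 change over the 7 genes was -0.47 in normoxia and -0.29 in hypoxia, beside 0.0099 and -0.0078 over all genes. Leaving out single samples ended the hypoxia calls of Car13 in 4 of 12 cases (adjusted p up to 0.0832) and of Slc16a1 in 5 of 12 (up to 0.113). These are WT hypoxia samples 2 and 3 and TAZKo hypoxia samples 1 and 3 for both genes, and WT hypoxia sample 1 for Slc16a1. Normoxia samples are not part of this comparison, and leaving out any of them ended neither call. Of the fits without a hypoxia sample, most therefore lost the calls. Slc16a1 stayed called only without TAZKo hypoxia sample 2 (adjusted p = 0.0329). Car13 stayed called only without that sample (0.0347) or without WT hypoxia sample 1 (0.0326). The genotype comparisons in the 2 conditions share no samples, whereas each shares samples with the hypoxia comparisons.

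**Figure D5:**
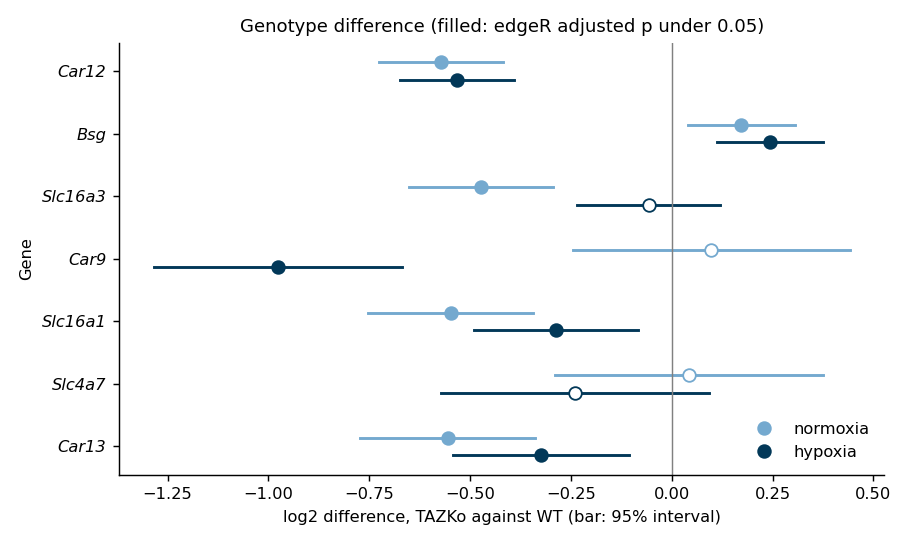
The log2 difference of TAZKo-labelled against WT samples (x axis) is drawn for each tested gene in normoxia and in hypoxia, with 95% intervals from the edgeR fit. Bsg lies right of 0 at 0.17 and 0.24, Car12 lies at -0.57 and -0.53, and Car9 moves from 0.10 to -0.98.

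By level per length, Bsg led in every group, from 279.5 RPKM in WT normoxia to 1299 in TAZKo-labelled hypoxia, with Slc16a3 next, from 49.1 to 266 RPKM. Slc16a1 came next in normoxia, and Car12 passed it in WT hypoxia (66.8 against 54.2 RPKM) and in TAZKo-labelled hypoxia (46.2 against 44.4 RPKM). Car9, at 1.70 to 4.32 RPKM, and Slc4a7, at 3.44 to 4.06 RPKM, were at the low end together with Car2. Samples of these neighbours overlapped for Car12 and Slc16a1 in TAZKo-labelled hypoxia, for Car12 and Slc4a7 in TAZKo-labelled normoxia, and for Car9 and Slc4a7 in WT hypoxia, where the order also depends on the gene length used. The genes most like each member over the 12 samples, by Pearson correlation of log2 CPM, are a description only, since the 12 points fall into 4 groups. They were Loxl2, Bhlhe40 and Mboat2 for Car12 (each 0.999), Ldha, Gm11814 and Ndrg2 for Slc16a3 (Ldha 0.999), Egln3, Syt17 and Gys1 for Bsg, and Ebp, Acss2 and Nmrk1 for Car9 (0.976, 0.958 and 0.957). For Car13 they were Atp2a2, Ubqln1 and Fam3c, and for Slc16a1 Dcbld2, Ric1 and Rasgrf2.

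A list of 57 other acid-handling genes (further anhydrases, MCT family members, sodium proton exchangers, bicarbonate transporters, lactate dehydrogenases, and proton and lactate sensors) had 33 members past the filter. In WT hypoxia 9 of the 33 rose, where 26% of all genes did, and 8 fell, where 25% did, which is near the background. With the TAZKo label 10 rose and 7 fell in hypoxia, against 22.2% and 21.6% of all genes. Between genotypes 6 were higher and 11 lower in normoxia, against 15.6% and 14.9% of all genes, and 5 higher and 8 lower in hypoxia, against 15.8% and 16.9%. In WT hypoxia the bicarbonate transporters (5 tested) had 3 rising and 1 falling, the proton exchangers and partners (10 tested) 1 and 3, the MCT family (8 tested) 1 and 2, and the anhydrases (5 tested) 2 and 1. The same groups had 4 and 1, 1 and 3, 0 and 2, and 2 and 1 in the libraries labelled TAZKo. Lactate dehydrogenases (2 tested) had 1 and 1 in WT and 1 and 0 with the TAZKo label, and the sensors (3 tested) 1 and 0, then 2 and 0. Slc4a4, the electrogenic sodium bicarbonate cotransporter, was at 74.2 ± 11.8 CPM in WT normoxia, 27.1 ± 1.77 in TAZKo-labelled normoxia, 140.1 ± 4.78 in WT hypoxia and 89.6 ± 1.77 in TAZKo-labelled hypoxia. Its response was larger in the libraries labelled TAZKo by 0.81 ± 0.133 (adjusted p = 0.00597). Slc16a10, a carrier of aromatic amino acids in the MCT family, was at 13.95 ± 1.13, 22.0 ± 0.589, 17.2 ± 1.67 and 16.1 ± 0.829 CPM in the same order, with an interaction of -0.76 ± 0.123 (adjusted p = 0.00531). These were the 2 of the 33 genes past the threshold in the interaction, against 0.722% of all genes called higher and 1.71% called lower. Ldha, which makes the lactate that the carriers export, rose from 797 ± 81.5 to 3284 ± 228 CPM in WT (log2 change 2.04) and from 616 ± 52.6 to 3126 ± 185 CPM in the libraries labelled TAZKo (2.34). It shares 16.6% of its words with other annotated genes, so its count is uncertain.

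Other members of that list also differed, each of the following changes being past the threshold. Asic3, an acid-sensing ion channel, was at 28.7 ± 1.55 CPM in WT and 6.68 ± 0.0772 in the libraries labelled TAZKo in normoxia (log2 change -2.10), and at 55.6 ± 7.75 and 8.90 ± 1.22 CPM in hypoxia (-2.63). The proton exchanger Slc9a2 was higher in the libraries labelled TAZKo by 1.54 in normoxia and 1.44 in hypoxia, and Slc4a11 by 1.23 in hypoxia. Ldhb, the other lactate dehydrogenase subunit, had 38 to 53 counts in WT normoxia and 0 to 3 in TAZKo-labelled normoxia, then 21 to 29 and 1 to 3 in hypoxia. It shares 27% of its words with other genes. The secreted anhydrase Car6 had 1 to 4 counts in WT normoxia and 48 to 93 in WT hypoxia, and 11 to 14 and 68 to 103 in the libraries labelled TAZKo. In WT hypoxia the MCT family member Slc16a5 and the exchanger scaffold Slc9a3r1 fell, by 1.21 and 1.19 on the log2 scale, and in TAZKo-labelled hypoxia Slc4a4 and the receptor Gpr132 rose by 1.72 and 1.42.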

How the data were processed

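RNA from 12 fibroblast samples in 4 groups of 3 was sequenced with the TruSeq RNA v2 kit, per the labels' protocols, a kit that does not mark strand. The authors deposited whole-number read counts per Ensembl gene for each sample, and mm10 is the build per the submitters' processing notes. The aligner, the counter and its handling of shared reads are not given in the sources used here. Totals were 21039451 to 31204510. Floors of 3 counts cover counting error only.

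Counts were filtered with filterByExpr (14408 genes left), scaled by TMM and fitted over all 12 samples with the edgeR 4.0.16 quasi-likelihood test (limma 3.58.1, R 4.3.3), with 1 coefficient per group. Adjusted p-values are Benjamini-Hochberg over all genes tested, with a threshold of 0.05, and come from this test unless another is named. A standard error is the log2 change divided by the square root of F, and errors after log2 changes are standard errors. RPKM used merged GENCODE M21 exons. The test was also run on simulated counts, drawn independently for each gene and sample. These lack the outlying samples and the shared deviations of same-numbered samples described here, and the outcome is not reported here.

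The members and lists were chosen with earlier results of these data known. Named genes were all members, Taz, Hif1a, the 4 largest called changes in each of the 5 comparisons among other acid-handling genes with at least 1 CPM in a group, and the 3 genes most correlated with each member. Those of Slc4a7 are not reported here. Alternatives were other scalings, filters, DESeq2 1.42.0, a replicate block, lane, the 6 samples of a comparison only, and leaving out each sample.

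Same-numbered samples deviated together in the genotype comparison in normoxia (correlations 0.149 to 0.354) and in the WT hypoxia comparison (0.152 to 0.368). They did not in the genotype comparison in hypoxia (-0.0237 to 0.121) or the TAZKo hypoxia comparison (-0.0245 to 0.0946). This hint of pairing comes from the data and not from a label. The main fit and its p-values do not use it, and only the replicate block does. In both genotypes, samples 1, 2 and 3 were in lanes 4, 4 and 5 in normoxia and in lanes 4, 5 and 5 in hypoxia. The part of lane in these correlations was not tested. Markers of endothelial, macrophage and osteoclast, erythroid, muscle and pluripotent cells were read as further lists.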

Additional observations from a re-analysis of the deposited data

Results flagged for a closer look

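Among the 7 tested members and the 33 other acid-handling genes tested, the hypoxia responses of 3 differed between genotypes by the interaction test of edgeR. Of all 14408 genes tested, 0.722% were called higher and 1.71% lower in that test. For Car9 the response was smaller in the libraries labelled TAZKo, by a log2 difference of -1.08 (adjusted p = 0.0179). For Slc4a4 it was larger by 0.81 (adjusted p = 0.00597), and for Slc16a10 the difference was -0.76 (adjusted p = 0.00531). The Car9 call did not hold in every edgeR fit that left out a single sample (adjusted p up to 0.065).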

How the results depend on the processing

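The values of the 7 tested genes kept their direction and their side of the threshold in 292 of 308 values under other settings, and in 385 of 420 when single samples were left out. The interaction called 1 of the 7 genes, and 2 with no filter, with the replicate block, with lane as a covariate and with DESeq2. It called 0 to 2 when single samples were left out. Over all genes it called 350, against 727 with no filter, 639 with the replicate block, 573 with DESeq2, and 174 to 711 when single samples were left out. The genotype comparison in hypoxia called 3 to 5 of the 7 genes when single samples were left out. The uncalled TAZKo hypoxia change of Car13 turned to -0.022 with library size alone and ran from -0.0533 to 0.0909 when single samples were left out. The uncalled normoxia genotype differences ran from -0.0806 to 0.215 for Car9 and from -0.147 to 0.137 for Slc4a7. Library size alone moved the median change of all genes by -0.106 in the WT hypoxia comparison, where 38.1% of called genes were higher against 51% with TMM (36% against 50.7% in the libraries labelled TAZKo). Of the interaction calls 29.7% were higher, against 40.7% with upper quartile scaling, 42.6% with the replicate block, 44.8% with a mean of at least 1 CPM and 55% with no filter, which turned the balance. The replicate block changed no call other than those given. The causes were not tested. Car9, at 81 to 267 counts, has the least depth of the 7 genes.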
